A study of Homo sapiens with 4 samples.

Results

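The MAF factors described here are 5 genes, MAF, MAFA, MAFF, MAFG and MAFK, of the 23287 gene symbols measured by RNA-seq in T47D human breast cancer cells. They were taken by symbol, and they were selected on their summed FPKM (fragment numbers divided by transcript length and library size) in both RNA-seq libraries and on the progesterone receptor (PR) binding sites in or within 100 kb of each locus, so these values are a description. RNA was sequenced from cells treated with 10 nM R5020, a synthetic progestin, for 3 h and from cells treated with the vehicle, ethanol (EtOH), for 3 h. PR binding sites were mapped by ChIP-seq after 10 nM R5020 for 1 h. All libraries came from the same cell line, which was moved from fetal calf serum to charcoal-stripped serum before treatment, for longer before ChIP than before RNA isolation. There was 1 library for each condition, so the differences have no replicate check and are given without p-values.

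MAF proteins bind DNA through a basic region and pair through a leucine zipper. The large factors, such as MAF and MAFA, carry an activation domain and drive differentiation genes in lens, pancreatic islets, lymphocytes and macrophages. The small factors, MAFF, MAFG and MAFK, lack that domain, repress as homodimers, and serve as the obligate partners of the CNC factors NFE2, NFE2L1 and NFE2L2 (NRF2) and of BACH1 and BACH2 at antioxidant response elements (AREs).

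Among the 5 members, the 3 small ones held most of the RNA. Their summed level was 8.68 FPKM in EtOH and 8.57 FPKM in R5020. The 2 large members, MAF and MAFA, together went from 3.73 to 2.003 FPKM, which is not a total for all large MAF factors. In these bulk samples fewer cells with a transcript and less of it per cell cannot be told apart. MAFA, MAFG and MAFK, 3 of the 5, reached an FPKM of 1 in 1 library or both and were retained, and 0 of these 3 passed 1.5-fold in either direction. Of all 11018 retained symbols, 7.67% passed it upwards and 4.14% downwards in R5020, on the scale of log2(FPKM + 1) used for every fold change below unless another is named. The members were chosen with this contrast known, so nothing is read from these counts.

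MAFK, a small factor and an NRF2 partner, was the highest of the 5 in both libraries, at 6.66 FPKM in EtOH and 6.08 FPKM in R5020, a log2 fold change of −0.11. It ranked 4434 of all symbols in EtOH and 4974 in R5020.

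MAFG, the small factor whose own transcription is a known NRF2 target, stood at 1.74 FPKM in EtOH and 1.97 FPKM in R5020, a log2 fold change of 0.12. Its rank was 9413 in EtOH and 9005 in R5020. The changes of MAFG and MAFK were both below the median size of change over the retained symbols, 0.18 on the log2 scale.

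MAFF, the small factor known as an inducible stress-response gene, was listed at 0.281 FPKM in EtOH and 0.520 FPKM in R5020. Its log2 fold change was 0.25, and 0.89 as a plain ratio with no pseudocount. Both values lie under 1 FPKM and correspond to about 45 reads in EtOH and 88 reads in R5020 (coverage times length over the read length), so the gene did not pass the filter on low values.

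MAFA, an activator of insulin transcription in beta cells, was the highest large factor among the members, at 3.21 FPKM in EtOH and 1.82 FPKM in R5020. The log2 fold change of −0.58 is a 1.49-fold lower level, just short of 1.5-fold, and it lies at percentile 4.28 of all retained symbols. With no pseudocount the log2 ratio of MAFA was −0.82, past that limit, and from the midpoints of its FPKM intervals the log2 fold change was −0.35, further from it. MAF, known as c-MAF in T cells, lens and myeloma, was at 0.517 FPKM in EtOH and 0.181 FPKM in R5020. Its log2 fold change was −0.36, and −1.51 with no pseudocount, from about 337 reads in EtOH and 116 in R5020. Both large members were thus lower in R5020. With both conditions in view, the order of the 5 members was MAFK, MAFA, MAFG, MAF and MAFF in EtOH, and MAFK, MAFG, MAFA, MAFF and MAF in R5020. With 1 library each, no spread is available to say which neighbours in these orders differ. The orders also rest on the FPKM and not on the intervals. The interval midpoints of MAFA were 1.12 in EtOH and 0.667 in R5020. They lie below those of the 5038-nt MAFG transcript alone, 1.53 and 1.73, so by midpoints MAFG is above MAFA in both libraries.

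**Figure D1:**
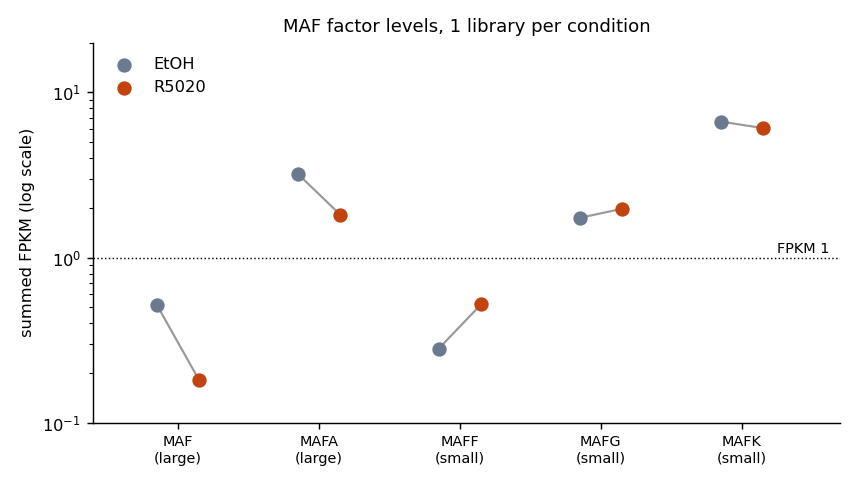
Summed FPKM (log scale) of the 5 MAF factors in the EtOH library (grey) and the R5020 library (orange), 1 point for each library; the dotted line marks an FPKM of 1. MAFK, MAFG and MAFA lie above the line in both libraries, and MAF and MAFF lie below it in both.

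The 5 genes have 10 transcripts in the deposited tables, of which 7 were above 0 in at least 1 library. Each transcript carries an FPKM interval from Cufflinks, which covers the estimate within 1 library and not the spread between cultures. The intervals of the libraries were apart for 5 of these 7, with R5020 above in 1 and below in 4. Over all 22471 transcripts above 0, the intervals were apart in 39.4%, with R5020 above in 21.1% and below in 18.3%, and here too the contrast is the one known when the genes were chosen.

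MAFF was the gene whose transcripts traded places. Its 2223-nt transcript, which starts at chr22:38599027 (hg19, plus strand), was at 0.281 FPKM in EtOH, with an interval of 0.173 to 0.389, and at 0 in R5020. The 2372-nt transcript, which starts upstream at chr22:38597939, was at 0 in EtOH and at 0.520 FPKM in R5020, with an interval of 0.378 to 0.674. Each estimate thus placed the whole of MAFF on 1 start in EtOH and on the other in R5020. The other 2 transcripts of the upstream start, of 2465 nt and 2439 nt, were at 0 in both libraries. An exchange of this kind was seen elsewhere: among the 910 symbols with several transcripts, a single one above 0 in each library and a total below 1 FPKM, 21.1% had another transcript in R5020 than in EtOH. Among all 2415 symbols with a single transcript above 0 in each library it was 9.36%.

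MAFG kept both of its transcripts, and their intervals overlapped between the libraries. The 5038-nt transcript, from the upstream start at chr17:79885587 (minus strand), was at 1.52 FPKM in EtOH and 1.73 FPKM in R5020. The 5070-nt transcript, which starts inside the gene at chr17:79881444, was at 0.216 FPKM in EtOH and 0.245 FPKM in R5020. The upstream start therefore carried most of MAFG in both conditions.

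MAF was measured through its 6878-nt transcript only, with an interval of 0.426 to 0.612 in EtOH and of 0.124 to 0.234 in R5020. The 2647-nt transcript from the same start was at 0 in both libraries. MAFA has 1 transcript, of 2373 nt, whose interval was 0.883 to 1.36 in EtOH and 0.471 to 0.863 in R5020. Both FPKM values of MAFA lie above their own intervals. MAFK, with 1 transcript of 3350 nt, had an interval of 6.06 to 7.26 in EtOH and of 2.96 to 3.77 in R5020, and its R5020 value of 6.08 lies above the interval too. This was frequent in the tables: the FPKM lay outside its own interval for 35.4% of the transcripts above 1 FPKM in either library. For MAFK the midpoint of the interval gives a log2 fold change of −0.81 in place of −0.11, so its small change holds for the FPKM and not for the interval.

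**Figure D2:**
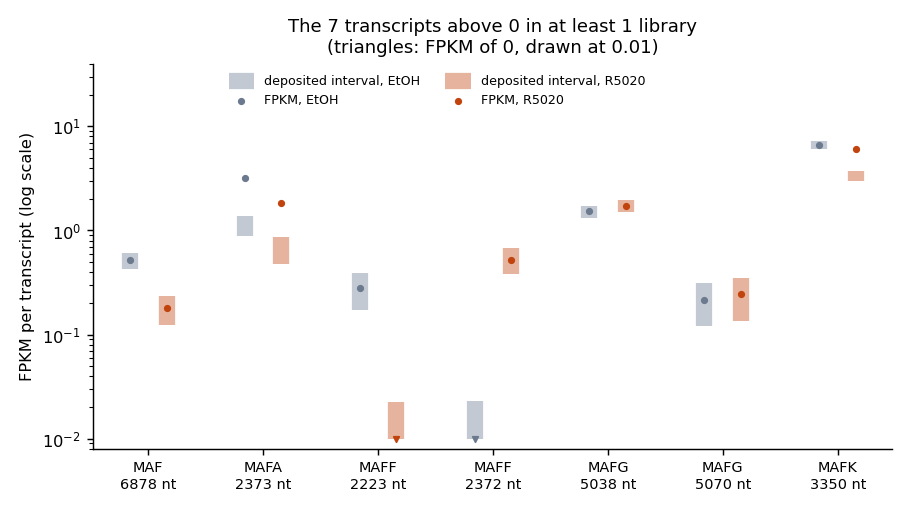
FPKM (log scale) of the 7 MAF transcripts above 0 in at least 1 library, with EtOH in grey and R5020 in orange. Points are the deposited FPKM, bars the deposited interval, and triangles at 0.01 stand for an FPKM of 0; the 2 MAFF transcripts exchange between the libraries, and the points of MAFA and the R5020 point of MAFK sit above their bars.

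PR binding sites lay within 100 kb of 4 of the 5 genes. Over all symbols 57.1% had such a site, and of the retained symbols 64.3%. The 5 genes had 73 sites in all, of 11181 in the ChIP-seq library, and 3 of them overlapped the deposited transcripts of a member. In GENCODE, whose MAFA gene runs further downstream than the deposited transcript, 8 lay in a member, 6 of them in MAFA. The density differed widely between the members, from 0 sites for MAF to 39 for MAFA, while the median symbol had 1 and the 90th percentile was 5.

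MAFA (chr8:144510230-144512602, minus strand) was among the symbols with the most sites. Only 9 symbols, 0.0386% of all, had 39 or more sites within 100 kb, and its neighbours ZC3H3 (47 sites), RHPN1 (44), C8orf51 (41) and TOP1MT (39) were among them, since their windows cover the same sites. Of the 39 sites, 30 lay downstream of MAFA, 8 upstream and 1 at its 3′ end, chr8:144509775-144510519, with a score of 81.39. The score is the p-value of the peak caller on a log scale, higher for a stronger site, and over all sites its median was 74.5. The highest-scoring site, at 207.8, lay 57.0 kb downstream in RHPN1. A site with a score of 81.21 lay 0.557 kb upstream of the deposited MAFA start, which GENCODE exons extend beyond. RHPN1 held 8 of the sites and was at 4.92 FPKM in EtOH and 7.09 FPKM in R5020, below 1.5-fold.

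MAFK (chr7:1570368-1582679, plus strand) had 19 sites, a number that 0.855% of symbols reached. One lay in its intron, chr7:1572294-1572675, with a score of 67.71, below the median of all sites. The next, with a score of 136.87, lay 1.10 kb past the 3′ end in TMEM184A, and the highest, at 144.44, lay 60.2 kb upstream in INTS1, a subunit of the Integrator complex.

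MAFG (chr17:79876145-79885587, minus strand) had 13 sites, a number reached by 2.33% of symbols. One of them, chr17:79881108-79881644, with a score of 56.97, covered the start of the 5070-nt transcript. That score ranks 9971 of 11181, near the lower end. The highest-scoring MAFG site, at 181.06, lay 94.7 kb upstream, close to the limit of the window.

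MAFF (chr22:38597939-38612517, plus strand) had 2 sites, both of high score. The first lay 5.98 kb past the 3′ end of MAFF, in TMEM184B, with a score of 163.82 and a rank of 352. The second lay 33.7 kb upstream in PLA2G6, a phospholipase, with a score of 124.19. Neither MAFF start had a site over it. MAF (chr16:79627745-79634622, minus strand) had none, and its nearest site, with a score of 73.65, lay 153 kb downstream.

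**Figure D3:**
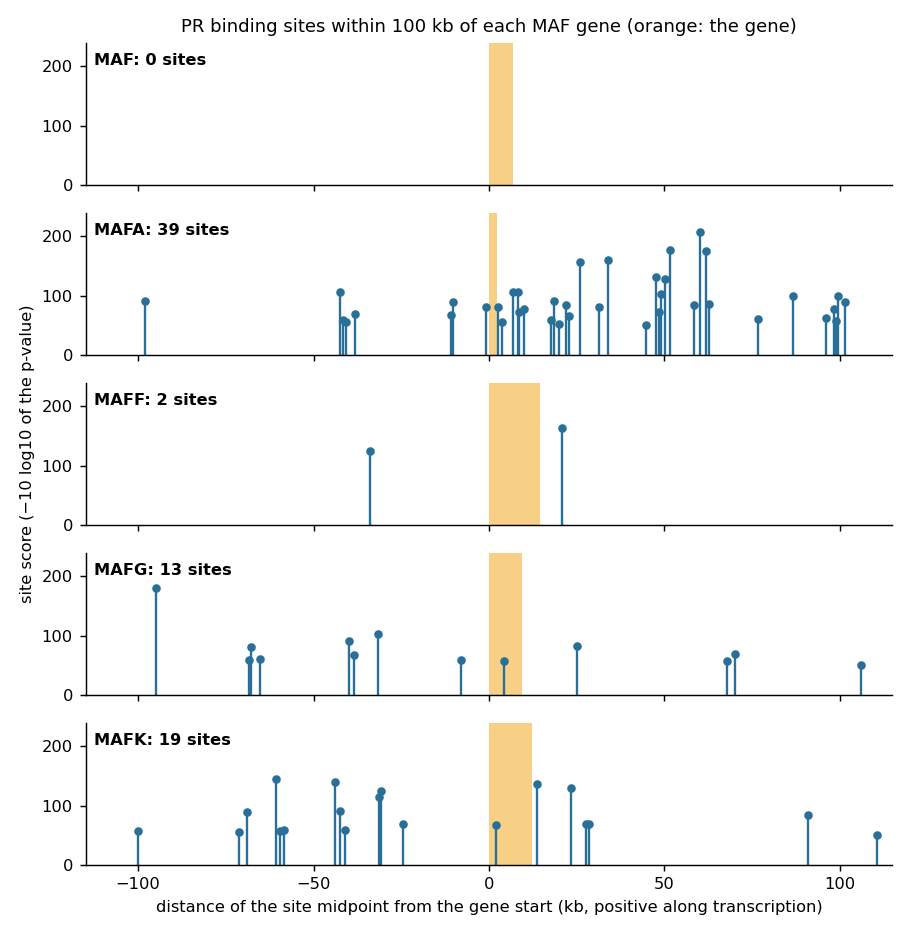
PR binding sites within 100 kb of each of the 5 MAF genes, by the distance of the site midpoint from the gene start in kb (x axis, positive in the direction of transcription) and by score (y axis); orange marks the gene, and 1 stem stands for 1 site. Of the 39 sites of MAFA, 30 lie downstream of the gene, the 2 sites of MAFF flank it, and MAF has none.

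**Figure D4:**
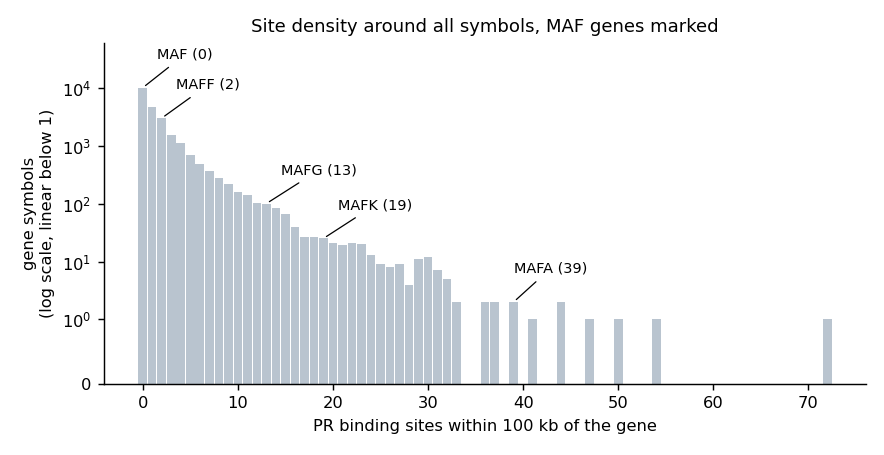
Number of gene symbols (y axis, log scale) by the number of PR binding sites within 100 kb (x axis), over all 23287 symbols. MAFA with 39 sites, MAFK with 19 and MAFG with 13 lie in the tail; MAFF with 2 and MAF with 0 lie with the bulk of the symbols.

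At the 100-kb limit, the last site inside lay at 98.8 kb for MAFA, 99.9 kb for MAFK and 96.5 kb for MAFG, with scores of 88.9, 57.65 and 50.98. The first site outside lay at 106 kb, 101 kb and 103 kb, with scores of 65.87, 69.91 and 58.54. For MAFF the last site inside lay at 33.7 kb and the first outside at 199 kb. A larger window would therefore add sites to MAFK and MAFG at once, and none to MAFF for a long way.

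The sites inside MAFK and MAFG are shown with their sequence, since 1 lies in the intron of the most abundant member and the other at a MAFG start. Both are on the plus strand of hg19. The progesterone response element (PRE) was searched as GNACA and TGTNC with 3 free bases between them, its 6-letter arm as TGTTCT, and the NF-E2 type element of MAF heterodimers as TGACTCA followed by GCA, all on both strands. The arm can lie within a PRE, and the NF-E2 element contains the shorter AP-1 element TGANTCA. The NF-E2 and AP-1 elements were added after the MAFG sequence had been seen. The MAFK stretch is chr7:1572294-1572593 and the MAFG stretch chr17:79881445-79881644, which begins next to the first base of the 5070-nt transcript. Capitals mark the 6-letter arm in the MAFK site and the NF-E2 element in the MAFG site.
MAFK site: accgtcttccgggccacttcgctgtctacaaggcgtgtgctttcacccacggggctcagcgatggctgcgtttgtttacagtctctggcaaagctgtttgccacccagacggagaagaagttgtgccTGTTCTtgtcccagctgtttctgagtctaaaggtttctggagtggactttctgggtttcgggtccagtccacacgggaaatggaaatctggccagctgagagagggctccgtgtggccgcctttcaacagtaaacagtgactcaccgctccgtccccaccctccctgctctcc
MAFG site: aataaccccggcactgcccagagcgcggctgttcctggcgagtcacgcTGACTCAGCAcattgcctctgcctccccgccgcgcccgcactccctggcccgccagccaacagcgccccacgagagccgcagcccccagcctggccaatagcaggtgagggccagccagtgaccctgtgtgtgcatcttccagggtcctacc

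A PRE was found in 1 of the 73 sites (1.37%), the site downstream of MAFF. Over the 11178 sites of all genes that could be read, 2.40% held a PRE, against 0.823% of windows 5 kb away. The 6-letter arm occurred in 13 of the 73 sites (17.8%), and in 9 of the windows 5 kb from these sites (12.3%). Over all sites the shares were 25.2% and 27.4%. Of the members, MAFK had the most sites with the arm, 6 of 19, with 0 of 19 in its windows 5 kb away, and MAFA had 4 of 39, with 8 of 39 in its windows. The sites near the MAF genes were richer in G and C, with a median of 65.0% against 56.7% over all sites.

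The NF-E2 element was in 2 of the 73 sites (2.74%), 1 for MAFG and 1 for MAFA, against 0.447% of all sites and 0.188% of windows 5 kb away, and it was in 0 of the windows 5 kb from the 73. The AP-1 element was in 5 of the 73 sites (6.85%) and in 5 of their windows 5 kb away, against 11.3% of all sites and 12.1% of the windows of all sites. In the MAFG site the NF-E2 element lies 58 bases before the start of the 5070-nt transcript. The 250 bases before that start are 1 of 33 such windows, of 23550 distinct deposited starts (0.140%), to hold it. The element was added to the search after this MAFG sequence had been seen, so nothing is read from its shares. The NF-E2 element is the letter pattern that small MAF and CNC heterodimers are known to bind, and the 5070-nt transcript beside it was at 0.216 and 0.245 FPKM. A match of letters is a description and not a measured site of binding for these factors. The CRE, the element of CREB and ATF factors, TGACGTCA, was found 57 bases before the MAF start and in no other member, and 1.71% of all starts had it within 250 bases. None of the 7 deposited starts of the 5 members had a PRE or its arm there, which 0.242% and 10.9% of all starts had. GENCODE exons cover all 250 bases before the deposited MAFA start and 224 of those before the MAFF start at chr22:38599027. These windows are thus largely annotated as exon, and the absence there is not one from sequence upstream of the annotated gene.

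Of the 73 sites, 22 overlapped a coding exon, 25 lay wholly in introns and 18 lay in no protein-coding gene. Scores of 100 or more were reached by 21 of them (28.8%), against 16.3% of all sites. Of these 21, 11 belonged to MAFA, 6 to MAFK, 2 to MAFG and 2 to MAFF. The exact score was shared with at least 1 other site for 55 of the 73 (75.3%), against 83.9% over all sites. The upstream MAFF site shares its score of 124.19 with 74 others, and its rank is therefore a tie.

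The 4 genes with sites have 30 other symbols within 100 kb, of which 22 were retained. Past 1.5-fold was 1 of these 22, against shares of 7.67% upwards and 4.14% downwards over all retained symbols. It was PLA2G6, which holds the upstream MAFF site, from 0.392 to 1.13 FPKM, a log2 fold change of 0.62. PLA2G6 was below 1 FPKM in EtOH and was retained through its R5020 value only, so nothing is read from its call. TMEM184B, which holds the PRE, was at 13.3 FPKM in both libraries. The 4 neighbours of MAFA had a median log2 fold change of 0.06 and the 4 retained neighbours of MAFK one of −0.29. P4HB and ALYREF were the most abundant neighbours of MAFG, and went from 169.9 to 168.9 FPKM and from 86.3 to 81.5 FPKM. MAFG-AS1, the antisense RNA next to MAFG, was at 0.762 FPKM in EtOH and 0.731 FPKM in R5020. The paper names the ScriptSeq kit for the libraries, but the sources used here do not state that strand was kept in counting. Whether reads of MAFG-AS1 and MAFG were told apart where they overlap is therefore not known.

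Of the partners of the small MAF factors, NFE2L1 and NFE2L2 stood above every member in FPKM in both libraries. Of 6 CNC and BACH genes, 4 were retained and none was past 1.5-fold, against 7.67% upwards and 4.14% downwards over all retained symbols. NFE2L1, a regulator of proteasome genes, went from 32.0 to 28.7 FPKM, and NFE2L2, the antioxidant regulator NRF2, from 13.2 to 11.6 FPKM. BACH1, the haem-sensing repressor that shares the small MAF partners, went from 4.61 to 2.78 FPKM, a log2 fold change of −0.57. NFE2L3 was at 1.03 and 1.22 FPKM. The lower 2 of the list, BACH2 and NFE2, were below 1 FPKM in both libraries.

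The 4 genes of NRF2 turnover were all retained, and none was past 1.5-fold, beside the same 7.67% and 4.14% over all retained symbols. KEAP1, the NRF2 sensor, went from 3.74 to 2.61 FPKM, a log2 fold change of −0.39. Its ligase partners CUL3 (12.5 and 11.8 FPKM) and RBX1 (5.92 and 5.41 FPKM) and the autophagy receptor SQSTM1 (30.9 and 29.4 FPKM) were nearly level.

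Of 28 ARE genes, 22 were retained, with 2 higher, 2 lower and a median log2 fold change of 0.00. Over all retained symbols 7.67% were higher, 4.14% were lower and the median was 0.01. With so few genes called, nothing is read from these counts. GCLC, the catalytic subunit of glutathione synthesis, was higher, from 6.18 to 10.7 FPKM, and so was OSGIN1, an oxidative stress growth inhibitor, from 6.19 to 10.9 FPKM. TXNRD1, the thioredoxin reductase, was lower, from 34.3 to 18.4 FPKM, and the ferritin light chain FTL from 22.4 to 13.5 FPKM. The most abundant of the others changed little: FTH1 went from 405.7 to 385.6 FPKM, PRDX1 from 227.5 to 206.1, NQO1 from 62.8 to 59.0 and PGD from 52.7 to 50.8.

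AP-1 proteins share recognition letters with MAF proteins and can pair with the large ones. Of 8 AP-1 genes, 5 were retained and 2 were at least 1.5-fold higher, JUN (12.6 to 23.5 FPKM, log2 fold change 0.85) and ATF3 (2.55 to 6.597 FPKM, 1.10). Over all retained symbols 7.67% were higher and 4.14% lower. With 5 genes on a list chosen with earlier results known, nothing is read from this count. JUND went from 30.1 to 22.7 FPKM, FOSL2 from 2.01 to 2.32 and JUNB from 1.52 to 1.001. None of the 11 known target genes of large MAF factors in lymphocytes, myeloma, islets and lens reached 1 FPKM. The highest was NUAK1, a kinase, at 0.617 FPKM in EtOH and 0.685 FPKM in R5020, followed in EtOH by IL10 at 0.228 FPKM and 0.345 FPKM in R5020.

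**Figure D5:**
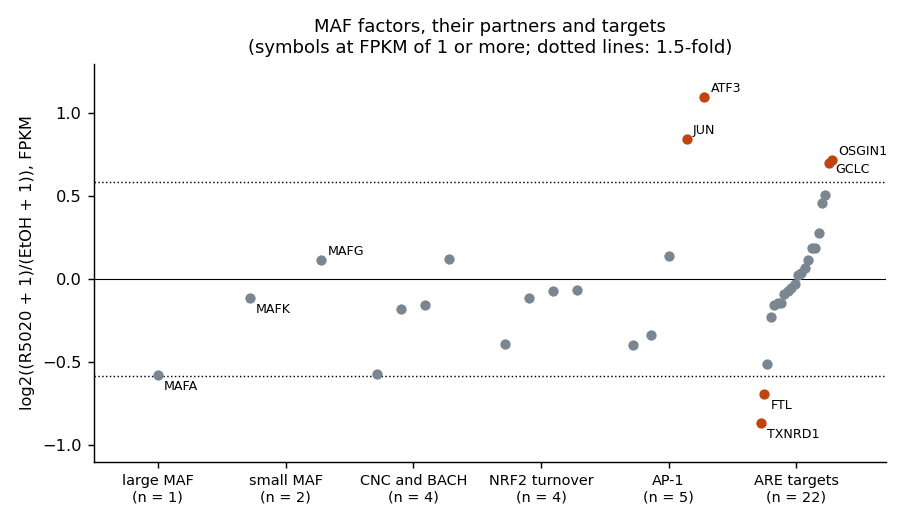
Log2 fold change, R5020 over EtOH on FPKM + 1, of the retained symbols of 6 lists, 1 point for each symbol; dotted lines mark 1.5-fold. MAFA lies at the lower line, MAFG and MAFK near 0, and the points past a line are JUN, ATF3, GCLC, OSGIN1, TXNRD1 and FTL.

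For each retained member, the symbols nearest in level and change were found by distance in the plane of log2(FPKM + 1) in the 2 libraries. Those nearest to MAFA were SLC39A4, SH3BGR and ANKRD34A, at distances of 0.03, 0.03 and 0.05. Only 16 symbols lay within 0.1 of MAFA. Those nearest to MAFG were NOL6, CCDC66 and MARCH2, and 132 lay within 0.1. Those nearest to MAFK were AGA, FTSJD2 and MYO6, and 123 lay within 0.1. With 2 libraries, such likeness says only that 2 values are close.

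The deposited coverage, times length over the read length, corresponds to 35151493 reads in EtOH and 36203604 in R5020. These are estimates and not counts of reads: the paper reports more unique reads for each library, and more for EtOH than for R5020. The luminal markers ESR1, PGR, GATA3, FOXA1, KRT19, EPCAM and CDH1 were between 10.9 and 608.4 FPKM in both libraries. Of these, 4 were lower in R5020 past 1.5-fold, against 4.14% of all retained symbols. FOXA1 went from 64.3 to 14.7 FPKM, GATA3 from 253.2 to 126.3, PGR from 23.7 to 15.3 and ESR1 from 17.2 to 10.9. They moved in the direction of the large MAF members, and their part in those values was not tested. KRT8 and KRT18 were high in R5020 but listed at 0 in EtOH, where the estimate of all 4 and 2 of their transcripts had failed. Of 16 markers of leukocytes, basal epithelium, stroma, endothelium, islets and erythroid cells, 15 were below 1 FPKM in both libraries, INS, GCG and HBB among them at 0. The exception was COL1A1, at 5.12 and 3.31 FPKM. No transcript of a MAF gene had failed.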

How the data were processed

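T47D cells were measured as 1 RNA-seq library after R5020, 1 after EtOH and 1 PR ChIP-seq library. The input DNA was not analysed here. Groups came from the labels, and doses and times from the methods of the study. The authors aligned the RNA reads to hg19 with TopHat and deposited, for each RefSeq transcript, the FPKM that Cufflinks estimated, with an interval and a coverage signal. The authors aligned the ChIP reads with Bowtie 1.1.2, called sites with MACS against input and deposited a score for each.

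FPKM was summed by symbol over 41138 transcripts. Fold changes were log2((R5020 + 1)/(EtOH + 1)), symbols that reached an FPKM of 1 in either library were retained, and 1.5-fold was the threshold. FPKM holds no read counts, so no count test was used. Distances ran from the nearest edge of a site to the extent of all transcripts of a symbol. Sites were annotated with the protein-coding genes of GENCODE 44 on GRCh37, the assembly of hg19, whose sequence was read. The fold-change calculation was run on EtOH values changed by set factors well past the threshold, without noise. Such a run checks the arithmetic, and not low values, values near the limit or the spread between cultures. Python 3.11.15, pandas 2.3.3, numpy 2.4.6 and matplotlib 3.10.9 were used.

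The members and gene lists were chosen with earlier results of these data known. Named were the 5 members with all transcripts, of each other list the symbols past 1.5-fold and at most 4 others with the highest FPKM in EtOH, symbols within 100 kb of a member with a site, and the 3 symbols nearest to each retained member in level. Of the neighbours, those given with values were picked after the values were seen. Some items are not reported here.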

Additional observations from a re-analysis of the deposited data

How the results depend on the processing

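No member changed direction under the 5 alternatives run on its fold change. The count of members at least 1.5-fold higher, 0, became 1 (MAFF) with no pseudocount and no filter on low values, an alternative chosen after seeing the data. The count at least 1.5-fold lower, 0, became 1 with a pseudocount of 0.1 (MAFA), 1 with R5020 rescaled to a median log2 ratio of 0 (MAFA), 1 with interval midpoints (MAFK), and 2 with no pseudocount and no filter (MAF and MAFA). MAFA lies so near the limit that a rescaling by 0.992 moves it across. Over the retained symbols the counts higher and lower were 845 and 456, and became 378 and 144 at 2-fold and 1092 and 787 with a pseudocount of 0.1. With no pseudocount and no filter, and so over all symbols, they were 2696 and 2896. The 73 sites became 46 at 50 kb, 122 at 200 kb, 21 at a score of at least 100 and 41 at or above the median score. No paired analysis was possible because there was 1 library per condition, and for the same reason no replicate could be left out. Depth limits MAFF most, at about 45 and 88 reads as estimated from the coverage.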
